A study of Schizosaccharomyces pombe with 2 samples.

Results

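The genes swi6+, chp2+, clr4+, rik1+, clr1+, clr2+, clr3+, and mit1+ encode proteins that write, read, and act on histone H3 methylated at lysine 9 in the fission yeast S. pombe. They were chosen by name in the deposited genome annotation and are 8 of its 5123 nuclear protein-coding genes that are not pseudogenes. The annotation accompanies H3K9me2 ChIP-seq libraries from swi6Δ cells, which lack the HP1 protein Swi6, in 2 replicates grown in YES medium. How much of the swi6+ locus was removed in those cells is not given in the labels. The file holds positions of genes and no read, coverage or enrichment value, so H3K9me2 at these genes, the loss of swi6+ in the libraries, and the depth of the libraries were not analysed here. All values below are lengths, positions, and sequence comparisons, with no test, since the file gives nothing to set the replicates against.

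Heterochromatin in S. pombe forms at centromeres, telomeres, and the silent mating type locus. Clr4 is the only H3K9 methyltransferase of this yeast, and it works with Rik1 in a cullin ubiquitin ligase complex called CLRC. The HP1 proteins Swi6 and Chp2 bind the methylated tail through a chromodomain and form dimers through a C-terminal chromoshadow domain, with a hinge between the domains. Chp2 is linked to SHREC, in which the deacetylase Clr3 and the remodeler Mit1 are joined with Clr1 and Clr2. The labels of the libraries name no deletion other than that of swi6+. In the study, clr4Δ cells, which have no H3K9 methylation, were the baseline for enrichment.

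The codons of the single point mutations that the study used in Swi6 are shown beside the codons opposite them in Chp2 and Clr4. They tie the gene models to the chromodomain and the chromoshadow domain. The hinge mutant of Swi6 in the study, which does not bind RNA, is not shown. W104A changes a tryptophan of the Swi6 chromodomain and L315E a leucine of the chromoshadow domain (residues counted from 1 at the start methionine). The sequences below are from the ASM294v3 genome, written 5′ to 3′ on the coding strand, with the codon in capitals.
swi6+ tryptophan codon, minus strand, chr1:1703681-1703701: cttttgaaaTGGgaaggttat
chp2+ tryptophan codon, plus strand, chr2:4350617-4350637: tatttgaaaTGGgaagggtac
clr4+ tryptophan codon, minus strand, chr2:457946-457966: cgcattcgaTGGttgaactat
swi6+ leucine codon, minus strand, chr1:1703048-1703068: cagaagatgCTTcaattttat
chp2+ isoleucine codon, plus strand, chr2:4351130-4351150: cttaaaattATTgaatattac
Residue 104 of Swi6 aligned with residue 199 of Chp2 and residue 31 of Clr4, and all 3 proteins had tryptophan there. Residue 315 of Swi6 aligned with residue 370 of Chp2, which is isoleucine. The Chp2 residue was the same in global and local alignments and with BLOSUM45 in place of BLOSUM62. Clr4 had no residue opposite 315, since the local alignment of Swi6 with Clr4 ended at residue 277 of Swi6.

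swi6+ (SPAC664.01c) is the shortest of the 8 genes. Its mRNA was annotated from 1702406 to 1704073 of chromosome 1 (minus strand), with 328 codons, no intron, a 5′ UTR of 72 nt, and a 3′ UTR of 609 nt. The coding length of 987 bp, stop codon included, was below the median of all coding genes (1137 bp), while the 3′ UTR was longer than that of 82.5% of the 4750 genes with an annotated 3′ UTR. The nearest coding genes were arp8+, for an actin-like protein, at 741 bp upstream and SPAC824.09c, for a predicted GTPase activating protein, at 701 bp downstream, both on the same strand. No other transcript was annotated over swi6+. All 9 genome windows of 200 bp that it touches, the window size the study used for its ChIP-seq profiles, held this gene and no other. A lysine tRNA gene lay 508 bp upstream of it.

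chp2+ (SPBC16C6.10), for the other HP1 protein, lies on the plus strand of chromosome 2 from 4349487 to 4351244 and encodes 380 residues. It was the only gene of the 8 with an annotated intron, whereas 46.6% of all coding genes had one in the coding sequence. The intron, at 4350559 to 4350595, was 37 bp long. Of 5067 introns in coding sequences, 1.42% were shorter, 55 had the same length, this one included, and the median was 56 bp. The 5067 include gaps as short as 1 bp, and 5047 of them were 30 bp or longer. The ends of the intron are printed with intron bases in capitals, as the 5′ end is a rare one.
chp2+ intron, 5′ end, plus strand, chr2:4350553-4350570: aaaaagGTGCGCAACATT
chp2+ intron, 3′ end, plus strand, chr2:4350578-4350601: GTCTTGCTAACCATGTAGgatgga
The leading 6 intron bases, GTGCGC, were found in 3 of 5047 introns of 30 bp or longer (0.0594%), this one included. The last 3, TAG, were found in 68.5%. The letters CTAAC, searched on the coding strand as the core of the yeast branch site, ended 7 bases before the exon. They occurred within the last 25 bases of 43.7% of these introns. The intron lies between codons 188 and 189, which leaves 10 whole codons before the tryptophan codon shown above. The residues opposite in Swi6 are 93 and 94, in an uninterrupted coding sequence.

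The UTRs of the HP1 genes differ as well. chp2+ had a 5′ UTR of 508 nt and a 3′ UTR of 70 nt, the reverse of the pattern at swi6+. This holds in the deposited annotation only, since RefSeq lists no 5′ UTR for chp2+. The upstream neighbour ogm4+, for a protein O-mannosyltransferase, ended 214 bp before chp2+, and rpl3201+, for a ribosomal protein, began 565 bp after it, both on the same strand. The GC content of the coding sequence was 35.6% in chp2+, which exceeded 6.93% of coding genes, and 40.0% in swi6+. No other transcript overlapped chp2+ in the deposited annotation, and its 10 windows of 200 bp held no other gene.

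Swi6 and Chp2 were each other's best match among the 5117 other proteins. Their global alignment had 102 identical residues of 285 aligned (35.8%) and a score of 306, the only positive score among the 28 pairs of the 8 proteins. With BLOSUM45 the pair scored 434 and 5 other pairs were also positive, the highest at 200. Percent identity separated the pair poorly from the rest. In the other 27 pairs it ran between 20.0% and 37.4%, and 2 pairs reached 35.8% or more. These were Swi6 with Mit1 and Chp2 with Clr1, each a short protein aligned with a much longer one. An effect of length on identity was not tested. With BLOSUM45 it was 37.7% for Swi6 and Chp2 and at most 37.6% for the others. The highest global score of the other pairs was -72 with BLOSUM62. The shared residues were concentrated around the chromodomain tryptophan. In the 51 residues centred on residue 104 of Swi6, 31 were identical (60.8%), compared with 35 of 120 aligned residues (29.2%) between residues 130 and 289, and 15 of 36 (41.7%) from residue 290 to the C-terminus. At most 17 residues were identical in a window of 21, and 6 windows centred between residues 105 and 114 reached this.

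**Figure D1:**
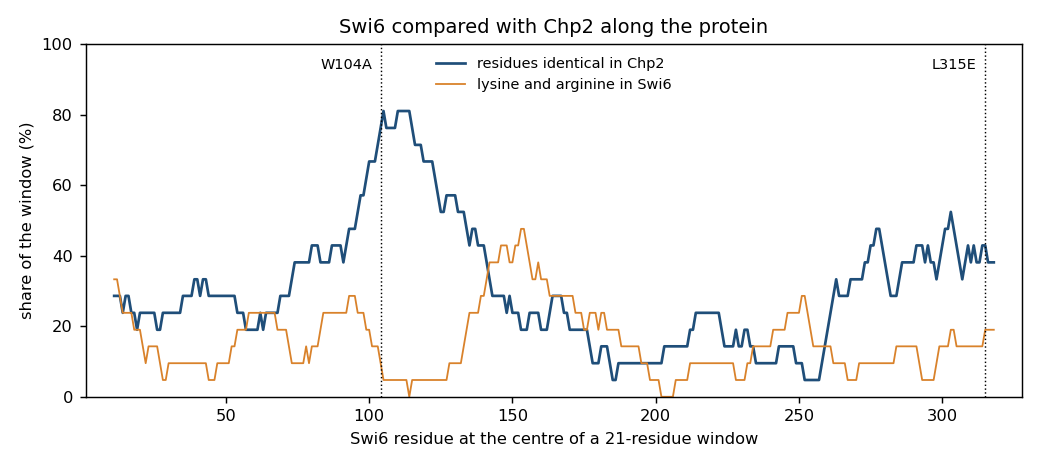
Share of identical residues between Swi6 and Chp2 (blue) and share of lysine and arginine in Swi6 (orange), as percent of a window of 21 Swi6 residues, plotted against the central Swi6 residue. Dotted lines mark the positions of W104A and L315E. Identity is highest in windows centred between residues 105 and 114, where up to 17 of 21 residues are identical, and the basic stretch follows them.

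Between the chromodomain and the C-terminus, lysine and arginine were spread differently in the HP1 proteins. From residue 130 to 289 of Swi6 they made up 28 of 160 residues (17.5%), and 25 of the 120 residues opposite in Chp2 (20.8%). The 50 residues of Swi6 richest in lysine and arginine, from 138 to 187, held 17 of them, more than in 94.8% of 5100 proteins of that length or longer. The richest 50 residues of Chp2, from 267 to 316, held 14, more than in 80.6%, and the median of all these proteins was 11. Aspartate and glutamate made up 22.0% of Swi6 and 17.4% of Chp2, against a median of 11.7% of all proteins, and Swi6 exceeded 98.8% of proteins in this share.

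clr4+ (SPBC428.08c), for the H3K9 methyltransferase, occupies 453996 to 458487 of chromosome 2 on the minus strand and has 490 codons and no intron. Its 3′ UTR of 2579 nt is the longest UTR of the 8 genes and ranked 58 of 4750, with 1.2% of genes above it. The coding sequence took up only 32.8% of the mRNA span. The whole of meu6+ (SPBC428.07), for a meiotic chromosome segregation protein of 651 residues, lies inside this 3′ UTR on the opposite strand, at 454108 to 456553. Those 2446 bp are 54.5% of the clr4+ span, and 1956 of them are meu6+ codons. No base of the clr4+ coding sequence was under meu6+. Of all coding genes, 3.73% had a nested coding mRNA on the other strand, and 1.87% had a single 3′ UTR feature that held a whole coding mRNA of the other strand. Of the 24 windows of 200 bp at clr4+, 11 held no other transcript.

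In the deposited annotation, the 5′ end of clr4+ abuts a retrotransposon remnant. A lone Tf1-type LTR, the terminal repeat left by a Tf1 element, was annotated at 458478 to 458824 and overlapped the 5′ UTR by 10 bp. An LTR overlapped the mRNA of 0.898% of coding genes and of no other gene of the 8. In RefSeq the 5′ UTR of clr4+ is 363 nt and begins at 458410, so it does not reach this LTR. The nearest coding gene upstream, SPBC428.10, began 2343 bp away on the other strand. None of the 4443 sequences of 50 bases in clr4+ occurred again in the genome, and the count was 0 in each of the other 7 genes too.

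The letters that encode the Asn-His-Ser-Cys motif of the SET domain, the catalytic domain of Clr4, mark where the enzyme lies relative to the chromodomain. They begin at residue 409 and are in capitals.
clr4+ SET motif, minus strand, chr2:456806-456829: ttttttAACCACTCCTGTtcacct
These 4 residues in this order were found in 8 of 5118 proteins (0.156%), among them Set1 and Set2. Set2, the H3K36 methyltransferase, was the best match of Clr4 over the proteome with a local score of 220, over residues 313 to 490 of Clr4. Set1, the H3K4 methyltransferase, was next with 185 (residues 357 to 488). The match with the chromodomain protein Chp1, part of the RITS complex, scored 168 and covered the other end, residues 8 to 179. Swi6 and Chp2 followed as ranks 4 and 5, with 134 and 101.

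rik1+ (SPCC11E10.08), for the CLRC subunit, lies on the plus strand of chromosome 3 from 1467695 to 1471912. It has 1040 codons, no intron, and UTRs of 479 and 616 nt. Unlike at clr4+, the coding sequence itself lies under the transcript of a neighbour. SPCC11E10.09c, a predicted alpha-amylase homolog, is transcribed towards rik1+ and has a 3′ UTR of 3422 nt in spliced parts. Its mRNA span covered 3703 bp of rik1+, including 3087 bp of the coding sequence (98.8%), of which 2938 bp were under its exons. Of all coding genes, 8.14% had over 90% of the coding sequence under coding mRNAs of the other strand. The remaining 5′ end was under the noncoding RNA SPNCRNA.1200, which overlapped 514 bp, so that 4217 of 4218 bp of rik1+ had another transcript on the opposite strand. None of the 22 windows of 200 bp at rik1+ held this gene alone.

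Rik1 was most like Ddb1, the subunit of another cullin ligase, over 1005 aligned residues with 22.2% identity and a score of 521. The next protein, the splicing factor Prp12, scored 107. rik1+ was also the member nearest to another gene of the related list, with epe1+, for an antagonist of heterochromatin, 32658 bp away on the same chromosome. An LTR fragment lay 1067 bp upstream of rik1+.

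**Figure D2:**
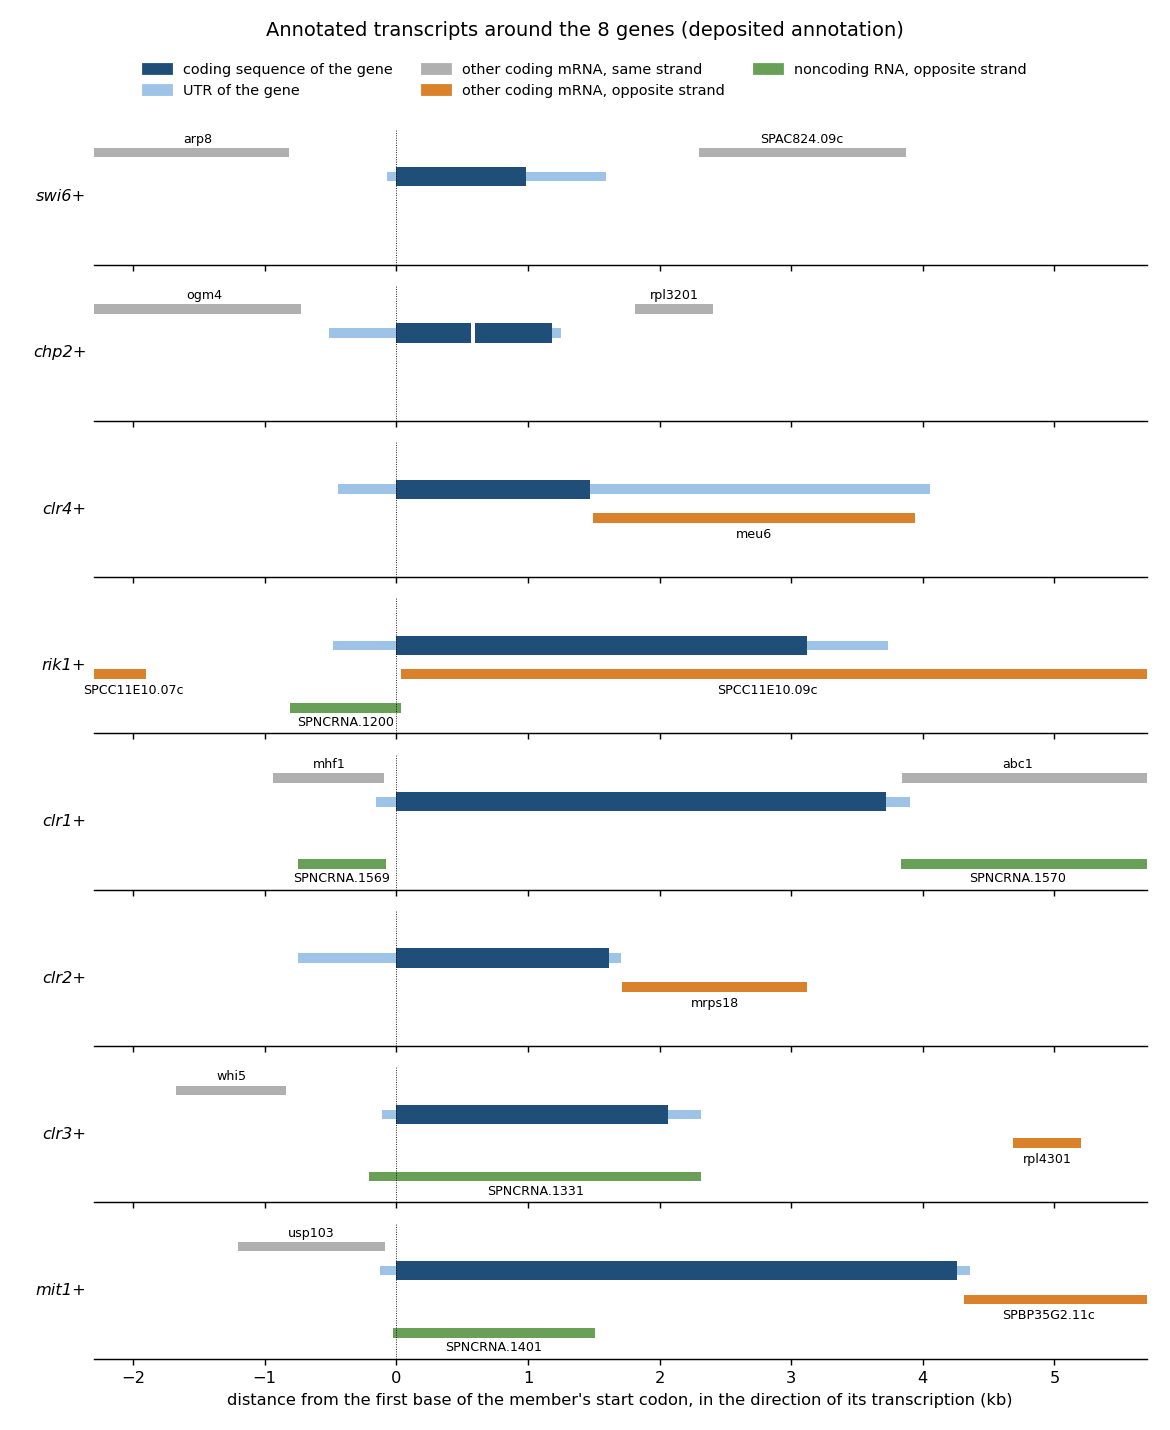
Maps of the 8 genes, each drawn in its direction of transcription, with distance from its start codon in kb on the horizontal axis. Dark blue is coding sequence, light blue is UTR, grey and orange are other coding mRNAs on the same and the opposite strand (introns included), and green is noncoding RNA on the opposite strand. The map shows meu6+ inside the clr4+ 3′ UTR, SPCC11E10.09c across rik1+, and SPNCRNA.1331 across clr3+.

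The SHREC genes clr1+, clr2+, clr3+, and mit1+ had UTRs shorter than the medians of all coding genes (173 nt for 5′ and 262.5 nt for 3′ UTRs), except for the 5′ UTR of clr2+. clr1+ (SPBC2D10.17), for the zinc finger protein that links the modules of SHREC, lies on chromosome 2 from 2997081 to 3001136 and has 1238 codons. clr2+ (SPAC1B3.17) lies on chromosome 1 from 4964526 to 4966980 and has 537 codons. clr3+ (SPBC800.03), for a class II histone deacetylase, lies on chromosome 2 from 254715 to 257138 and has 687 codons. mit1+ (SPBP35G2.10), for the ATP-dependent remodeler, lies on chromosome 2 from 981944 to 986422 and has 1418 codons. All 4 are on the plus strand and have no intron. The coding sequences of mit1+ and clr1+ were longer than 97.6% and 96.1% of coding genes. No gene of the related list had a coding sequence as long as that of mit1+ (4257 bp), the longest being that of the remodeler gene hrp3+ with 4167 bp.

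The genes of SHREC differ in what is annotated on the other strand. SPNCRNA.1331, an antisense RNA of 2522 bp, covered all 2424 bp of clr3+, ends included, whereas 2.71% of coding genes had a noncoding antisense RNA over the whole mRNA. At mit1+, SPNCRNA.1401 lay within the gene and covered 1532 bp, with 35.4% of the coding sequence and 26 bp of the 5′ UTR. At clr1+, SPNCRNA.1569 and SPNCRNA.1570 covered 79 bp of the 5′ UTR and 63 bp of the 3′ UTR, with no base of the coding sequence. SPNCRNA.1569 lies mostly over the upstream neighbour mhf1+. SPNCRNA.1570, labelled as a possible alternative UTR, spans the whole of the downstream neighbour abc1+. No antisense RNA was annotated at clr2+, the gene with the longest 5′ UTR of the 8 (750 nt, rank 376 of 4695).

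The distance from the SHREC genes to their neighbours varied. mrps18+, for a mitochondrial ribosomal protein, ended 9 bp from clr2+ on the other strand, whereas vht1+, for a vitamin H transporter, was 3492 bp away on the other side. clr1+ shared 67 bp with the mRNA of mhf1+ and 61 bp with that of abc1+, both on its own strand. mit1+ shared 35 bp with usp103+, for a U1 snRNP protein, on its own strand and 40 bp with SPBP35G2.11c on the other. clr3+ lay 730 bp after whi5+, for a predicted repressor of cell cycle transcription, and 2367 bp before rpl4301+, for a ribosomal protein. In the gap after clr3+ were 3 glutamine tRNA genes, at 315, 769, and 1709 bp. swi6+ and clr3+ were the 2 genes with a tRNA gene within 1 kb, which 3.83% of coding genes had.

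The mit1+ codons of the nucleotide-binding loop (Gly-any-Gly-Lys-Ser or Thr) are shown because they mark the ATPase in the longest protein of the 8. The loop begins at residue 584.
mit1+ nucleotide-binding loop, plus strand, chr2:983811-983837: gaaatgGGTTTAGGTAAAACTgtacaa
A loop of this form was found in 4.85% of 5118 proteins. The best matches of Mit1 were the remodelers Hrp1 (962) and Hrp3 (934), over about the same stretch of Mit1, residues 392 to 1134 for Hrp1. Clr3 was most like the class I deacetylases Hos2 (298) and Clr6 (259). The gene for Clr6 has 13 introns, compared with none in clr3+ and none in the gene for Hos2. Clr1 and Clr2 had no match of this kind. The best score of Clr2 was 77, with Upf2, and that of Clr1 was 188, with a predicted chitinase.

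**Figure D3:**
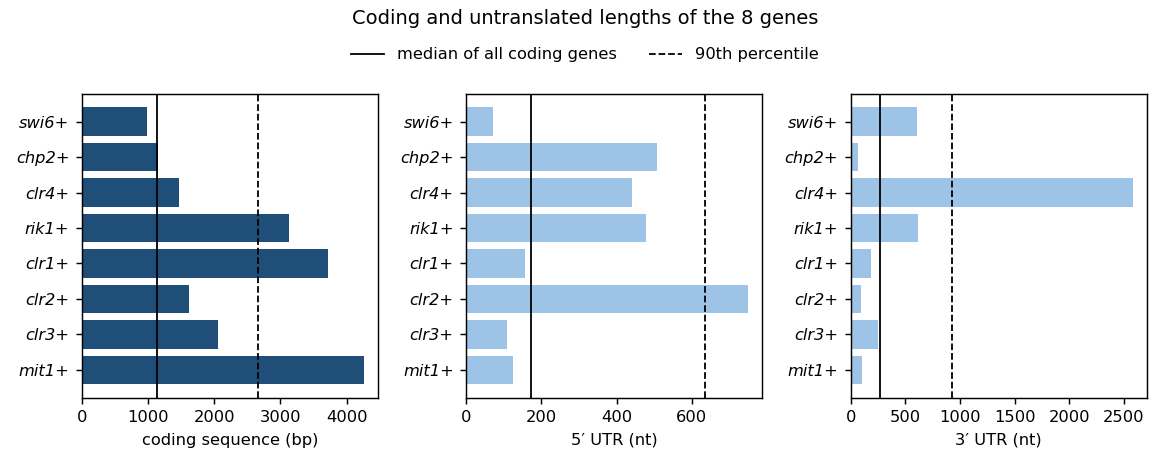
Lengths of the coding sequence in bp (stop codon included) and of the 5′ and 3′ UTRs in nt, 1 bar for each gene. The solid line is the median and the dashed line the 90th percentile of all coding genes with that feature. The 3′ UTR of clr4+ (2579 nt) and the 5′ UTR of clr2+ (750 nt) are past the 90th percentile.

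Across the 8 genes, 7 had no intron in the coding sequence and chp2+ alone had an intron, against 46.6% of coding genes. Of 21 related genes (other CLRC, deacetylase, remodeler, and SET domain genes, chp1+, epe1+, and ddb1+), 14 had none. A UTR over 500 nt was annotated in 5 of the 8 genes (swi6+, chp2+, clr4+, rik1+, and clr2+), against 32.3% of 4858 coding genes with a UTR. Over 1000 nt it was clr4+ alone, against 13.2%. An antisense noncoding RNA was annotated at 4 (rik1+, clr1+, clr3+, and mit1+), against 21.2% of coding genes. Antisense here means any overlap on the opposite strand, and the RNA at rik1+, SPNCRNA.1200, is labelled as a predicted intergenic RNA. The mRNA overlapped that of a coding neighbour at 4 (clr4+, rik1+, clr1+, and mit1+), close to the 51.0% of all coding genes. No coding span of the 8 overlapped another, against 1.13% of coding genes. The downstream neighbour was convergent at 5, close to 54.9% of coding genes. With 8 genes chosen by name these counts are descriptions, and nothing about the group was read from them.

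The share of the mRNA span that lay under other transcripts on either strand was 0 at swi6+, chp2+, and clr2+, 3.5% at clr1+, 35.9% at mit1+, 54.5% at clr4+, and above 99% at rik1+ and clr3+. The median of all coding genes was 4.45%. Over 50% was covered at 3 of the 8 genes, against 23.6% of coding genes, and 3 were free of other transcripts, against 35.3%. Genes that overlap share the same DNA, so a ChIP-seq value in a window there would belong to both.

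**Figure D4:**
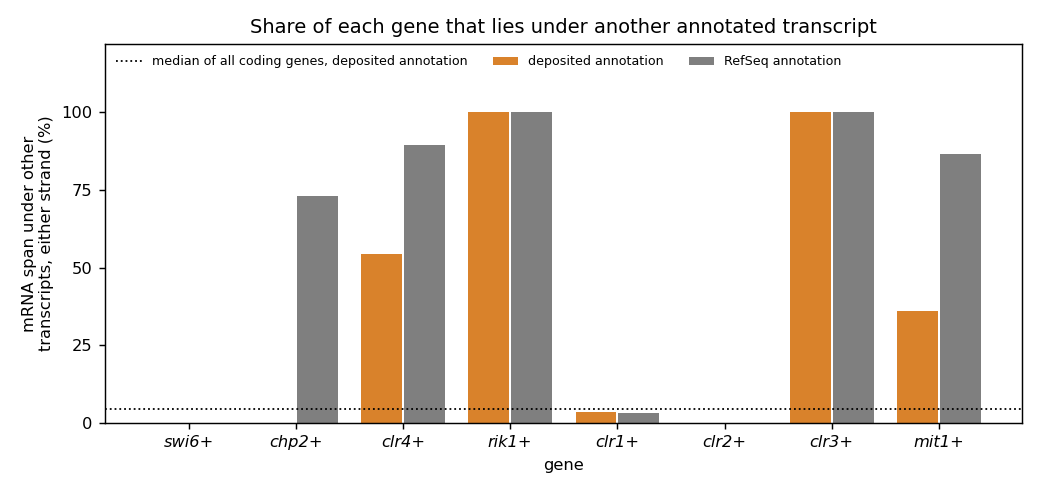
Percent of the mRNA span of each gene under other annotated transcripts on either strand, in the deposited annotation (orange) and in RefSeq (grey). The dotted line is the median of all coding genes in the deposited annotation (4.45%) and applies to the orange bars only. The median in RefSeq, which is not drawn, was 61.9%. swi6+ and clr2+ are at 0 in both, and chp2+ is at 0 in the deposited annotation and at 73.1% in RefSeq.

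The annotation of these genes was compared with RefSeq. The coding sequences and 3′ UTRs of all 8 were the same in both, and the 5′ UTR differed in all 8. The largest differences were at chp2+, with 508 nt in the deposited file and 0 in RefSeq, at rik1+ with 479 and 292 nt, and at mit1+ with 124 and 0 nt. RefSeq lists 7171 noncoding RNAs, and the deposited file 1571. With RefSeq, an antisense noncoding RNA was listed at 6 of the 8 genes (the 4 named above, chp2+, and clr4+), against 75.5% of coding genes. The covered share was then 73.1% at chp2+, 89.6% at clr4+, and 86.7% at mit1+, whereas swi6+ and clr2+ stayed free. Over 50% was covered at 5 of the 8 genes in RefSeq, against 58.9% of coding genes.

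Upstream start codons differed among genes of similar UTR length. The letters ATG occurred 10 times in the 479 nt of the rik1+ 5′ UTR and 7 times in the 508 nt at chp2+, compared with a median of 4 in genes whose 5′ UTR was within 10% of the same length. In contrast, clr2+ had 1 in 750 nt (median 7 in 112 such genes) and clr4+ had 1 in 440 nt (median 4 in 246). At least 1 was found in 7 of the 8 genes, all but mit1+, against 63.3% of 4695 coding genes. As the 5′ ends differ between annotations, these counts hold for the deposited one.

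None of the 8 genes lay within 100 kb of the heterochromatin in which their products act, measured to the chromosome ends, the centromere repeats, and the mating type region, against 10.8% of coding genes. chp2+ was the closest, 188560 bp from the right end of chromosome 2, and the only gene of the 8 within 200 kb, against 21.8%. clr3+ and clr4+ were 254714 and 453995 bp from the left end of the same chromosome. rik1+ was 330691 bp from the repeats of centromere 3, mit1+ 617269 bp from those of centromere 2, and clr1+ 859959 bp from the mating type region. clr2+ and swi6+ were 612153 and 1702405 bp from the ends of chromosome 1.

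The functional terms in the annotation follow the choice of the genes and are given as a description. Silencing at centromeres and at the mating type cassettes was listed for all 8 (for 47 and 29 coding genes in all). Silencing at telomeres was listed for swi6+, chp2+, clr4+, rik1+, and clr3+, out of 19 coding genes, and the NuRD complex for the 4 SHREC genes alone. A separate term for telomeric heterochromatin was listed for the 4 SHREC genes, out of 7 coding genes. The term for nuclear telomeric heterochromatin was listed for swi6+, chp2+, and clr4+, out of 10 coding genes. Binding of nucleosomal histones was listed for swi6+ and chp2+ and for no other gene. swi6+, clr4+, and rik1+ shared a term for donor selection in mating type switching with 1 other gene and were noted as sensitive to the microtubule drug TBZ, as were 1.39% of coding genes, whereas chp2+ and the SHREC genes were not. A viable deletion was noted for all 8, against 70.2% of coding genes. Accumulation of outer repeat transcripts was noted for swi6+ and clr4+ of the 8, and for 0.0781% of coding genes, the others being dcr1+ and stc1+.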

How the data were processed

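The authors deposited 1 file for the series, a genome annotation with GeneDB names. Its positions are 1-based starts and ends of features, and its score column was empty in all 33839 lines. The study gives enrichment as log2 values in windows of 200 bp, but the deposited file holds none. The aligner and the library depths are not given in the sources used here. Members were matched by name, and the members, the related list, and the settings were chosen with earlier results of these data known. Genes named are the 8 members, their nearest coding neighbours, transcripts over them, and, from the related list, those longest, richest in introns, or most alike. Other names were chosen after their values were seen. Overlap was counted from 1 base on mRNA spans. Coding sequences were translated from ASM294v3 (5118 of 5123 whole reading frames) and aligned with BLOSUM62, gap opening 11 and extension 1. RefSeq protein and promoter tables were not used here. The work used Python 3.11.15, pandas 2.3.3, numpy 2.4.6, Biopython 1.88, and matplotlib 3.10.9.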

Additional observations from a re-analysis of the deposited data

How the results depend on the processing

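When the coding spans alone were compared, the number of members overlapping a coding neighbour was 0 in place of 4. With a limit of 1000 nt, 1 member had a long UTR, clr4+, in place of 5. Within 200 kb of heterochromatin there was 1 member, chp2+, in place of 0. With RefSeq, 5 members were over 50% covered in place of 3, and with BLOSUM45, 6 protein pairs had a positive global score in place of 1 (both counts were added after seeing the data). Otherwise the alternatives (an overlap of 50 bp, overlap with coding sequence only, RefSeq, noncoding neighbours, a limit of 300 nt, 50 kb, local alignment, and BLOSUM45) kept the counts of members with an antisense RNA, a coding overlap, a convergent neighbour, an intron, or a long UTR, or near heterochromatin, within 1.5 times their values and left the identity of Swi6 and Chp2 between 35.8% and 37.7%. With RefSeq the members with an antisense RNA were 6 in place of 4, while the share of all coding genes rose from 21.2% to 75.5%. No paired analysis was possible because the file holds no value of either replicate. Depth set no limit on these values, as they rest on positions and sequence. The noncoding RNAs and 5′ ends depend on the annotation used, and neither annotation was compared with RNA from these cells.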
